A study of Rattus norvegicus with 24 samples.

Results

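RNA abundance in the brain was compared between 3 old rats aged 24 months and 3 young rats aged 6 months (Rattus norvegicus), with 1 RNA-seq library of total RNA per animal. These 6 libraries are part of a series of 24, in which the same animal codes also carry liver RNA-seq and, for both organs, ribosome profiling, which sequences the mRNA fragments covered by ribosomes. No treatment or allele is named for either age, and the labels state no strain, sex or brain region. The tissue was homogenised on ice and libraries were made with a stranded kit. Each library holds whole-number counts for 22938 transcripts. Of these, 787 were left out because their mean level in young liver RNA-seq, in counts scaled to the library total (CPM), was at least 10 times the sum of their mean in young brain RNA-seq and 0.05, which leaves 22151. The highest ratio among those kept was 9.99 and the lowest among those left out was 10.01. Of the 22151, 13611 had enough counts to be tested, and 5440 had 0 counts in all 6 brain RNA-seq libraries.

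Bulk brain RNA is a mixture from neurons, astrocytes, oligodendrocytes, microglia and vessels. Ageing of the rodent brain is known for shifts in glial, myelin and immune transcripts beside modest shifts in most neuronal ones. A bulk level cannot tell apart fewer cells of a type and less RNA per cell. The count tables give Ensembl transcript identifiers alone, and 0 of them matched the rat gene table used here. Transcripts are therefore described by their level, a length-like value, their presence in liver and their ribosome footprints, and their functions are not stated.

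The old libraries held 17551059, 16173806 and 14281043 counts, and the young libraries held 15290694, 15447209 and 15018979. Defining marker genes could not be looked up, but the libraries fell by organ: correlations of log2(CPM + 0.5) ran from 0.974 to 0.997 among the 6 brain libraries and from 0.593 to 0.694 between brain and liver libraries. A pair of libraries stood apart. In old animal 2, the 787 left-out liver transcripts took 3.05% of counts, against 0.717% in old animal 1, 0.695% in old animal 3 and 0.528% to 0.601% in the young libraries. Young animal 1 lay about as near to the old animals as to the other young ones. Its median absolute log2 difference over 9791 transcripts averaging at least 10 CPM was 0.0815 from old animal 1, 0.0917 from old animal 2 and 0.105 from old animal 3, and 0.102 from young animal 2 and 0.109 from young animal 3. Young animals 2 and 3 differed by 0.0693 from each other, and the old animals by 0.0723 to 0.0872 among themselves.

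The position of young animal 1 bears on every count of transcripts. When it was left out, 1302 transcripts passed the test, of which 1286 were among the 13611. At 389 of these 1286 (30.2%) the level in young animal 1 was closer to the mean of the other young animals than to that of the old ones, beside 43.3% of all tested transcripts. For the other libraries, the left-out animal was closer to its own age at 11 of 16 transcripts called without it (old animal 1), 2 of 3 (old animal 2), 32 of 38 (old animal 3), 11 of 13 (young animal 2) and 12 of 13 (young animal 3). Over all tested transcripts these shares ran from 54.9% to 59.9%. The transcripts called without a library were chosen by a test on the remaining 5. The library left out still entered the set of 13611, the scaling of the levels and, if young, the liver limit.

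**Figure D1:**
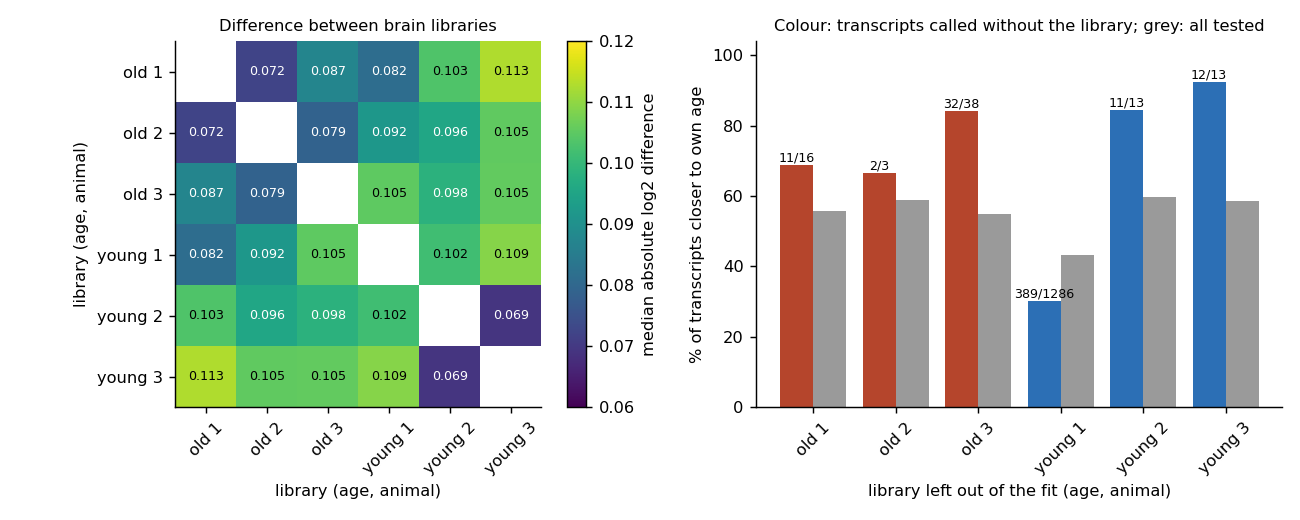
Left, median absolute log2 difference in CPM between each pair of brain RNA-seq libraries over 9791 transcripts averaging at least 10 CPM. Right, share of transcripts at which a library left out of the fit was closer to its own age, for transcripts called without it (colour, with counts above the bars) and for all tested (grey); young animal 1 reached 30.2% and the other 5 libraries 66.7% to 92.3%.

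Few transcripts were called as different between the ages, and most of those called differed by little. In old brain 80 transcripts rose and 42 fell among 13611 tested (edgeR quasi-likelihood test, adjusted p under 0.05), which is 0.588% and 0.309% of those tested and 0.896% together. The median log2 fold change, old over young, was 0.51 for those that rose and -0.32 for those that fell, beside 0.00 over all tested. Of those that rose, 8 were at least 2-fold higher and 52 rose by less than 1.5-fold. Of those that fell, 0 reached 2-fold and 40 fell by less than 1.5-fold. Of all tested transcripts, 96.9% were within 1.5-fold, and 77 were at least 2-fold higher and 17 at least 2-fold lower whether called or not. At an adjusted p under 0.10, 214 transcripts were higher and 132 lower (2.54% of those tested), and 1921 had an unadjusted p under 0.05 (14.1%).

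The count of 122 moved with each library left out. Each such fit also holds fewer libraries, and the part of any animal in these moves was not tested. With old animal 2 left out, 3 passed. With young animal 1 left out, 1302 passed (624 higher and 678 lower in old). Leaving out old animals 1 and 3 in turn gave 16 and 38, and leaving out either young animal 2 or 3 gave 13. At an unadjusted p under 0.05 (edgeR), 1434 passed without old animal 2 and 3055 without young animal 1. Without old animal 1 or 3 the number was 1509 or 1669, and without young animal 2 or 3 it was 1307 or 1361. With the spread estimated over the 12 RNA-seq libraries of both organs edgeR called 0, with 656 at an unadjusted p under 0.05, while DESeq2 called 298 and limma-voom 79.

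**Figure D2:**
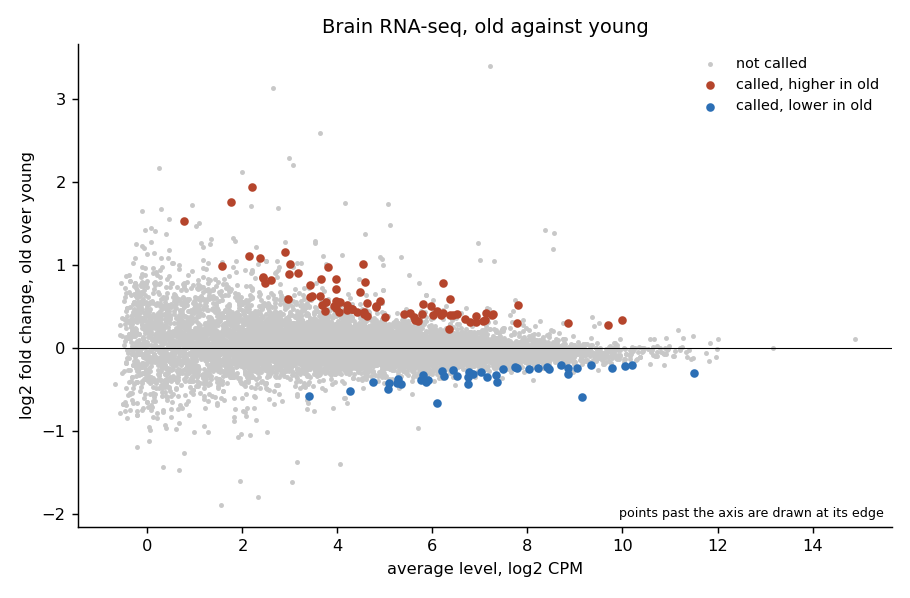
Log2 fold change of each tested transcript (old over young) against its average level in log2 CPM; 1 point beyond the axis is drawn at its edge. The 80 called higher in old (red) spread over all levels and reach 1.94, while the 42 called lower (blue) lie mostly at higher levels and reach -0.66.

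The transcript with the smallest p among those that rose was ENSRNOT00000059127. It had 105, 92.4 and 102 CPM in old brain, against 69.9, 61.7 and 67.0 CPM in young brain. Every old library was above every young one, which the rule for naming a transcript required. The log2 fold change was 0.59 (SE 0.065, edgeR adjusted p = 0.00757). Its ribosome footprints, which the rule did not use, had 94.5, 81.7 and 81.8 CPM in old brain, against 55.2, 58.5 and 50.4 CPM in young brain. The footprint groups did not overlap either, with a log2 fold change of 0.65 (SE 0.11, edgeR adjusted p = 0.00109), beside 1.01% of footprint tests that called a transcript higher. In liver the transcript was scarce, at 5.06 ± 2.77 CPM in old and 1.62 ± 1.34 CPM in young rats (SD, n = 3). Its young liver level was 0.0114 times that of young brain RNA-seq.

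ENSRNOT00000028732 rose next by p. Its level was 277, 247 and 260.3 CPM in old brain, against 196, 170.4 and 179 CPM in young brain. The log2 fold change was 0.52 (SE 0.060, edgeR adjusted p = 0.00757). Footprints had 251, 274 and 276 CPM in old brain, against 206, 175 and 203 CPM in young brain, again with no overlap (log2 fold change 0.45, SE 0.080, edgeR adjusted p = 0.00109). It is present in liver too, at 98.1, 116 and 154 CPM in old rats, against 85.3, 67.1 and 57.8 CPM in young rats. The liver log2 fold change was 0.81 (SE 0.20, edgeR adjusted p = 0.0713) and did not pass. Both transcripts that rose were called in 20 of 21 alternatives. The exception was the spread over 12 libraries, with adjusted p of 0.99999 and 0.584 (edgeR).

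Among those that fell, ENSRNOT00000058665 had the smallest p. It had 419, 466 and 471 CPM in old brain, against 707, 617 and 723 CPM in young brain (log2 fold change -0.59, SE 0.066, edgeR adjusted p = 0.00757). No liver library held a count of it. Its footprints had 542, 429 and 526 CPM in old brain, against 852, 556 and 617 CPM in young brain. The footprint groups did not overlap, but young animal 1 stood far above the other young animals there, and the log2 fold change of -0.44 (SE 0.21, edgeR adjusted p = 0.472) did not pass. The RNA-seq fall was called in 19 of 21 alternatives. The exceptions were the fit without old animal 2 (log2 fold change -0.61, edgeR adjusted p = 0.0539) and the spread over 12 libraries (-0.59, edgeR adjusted p = 0.221).

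ENSRNOT00000009288 was the 9th most abundant of the tested transcripts. It had 2540.3, 2591 and 2704 CPM in old brain, against 3276, 3140.5 and 3248 CPM in young brain. This is a small and even difference, with a log2 fold change of -0.30 (SE 0.040, edgeR adjusted p = 0.00998). Liver RNA-seq held the transcript too, at 203, 199 and 189 CPM in old rats, against 193, 298 and 282 CPM in young rats. The liver log2 fold change was -0.39 (SE 0.16, edgeR adjusted p = 0.197) and did not pass. Footprints had 1078, 1017 and 1154 CPM in old brain, against 1466, 1370.3 and 1360.2 CPM in young brain (log2 fold change -0.37, SE 0.054, edgeR adjusted p = 0.000123). The RNA-seq call held in 18 of 21 alternatives. It was lost when old animal 1 was left out (log2 fold change -0.28, edgeR adjusted p = 0.0568), and likewise for old animal 2 (-0.29, adjusted p = 0.0701). It was also lost with the spread over 12 libraries (-0.30, edgeR adjusted p = 0.951).

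**Figure D3:**
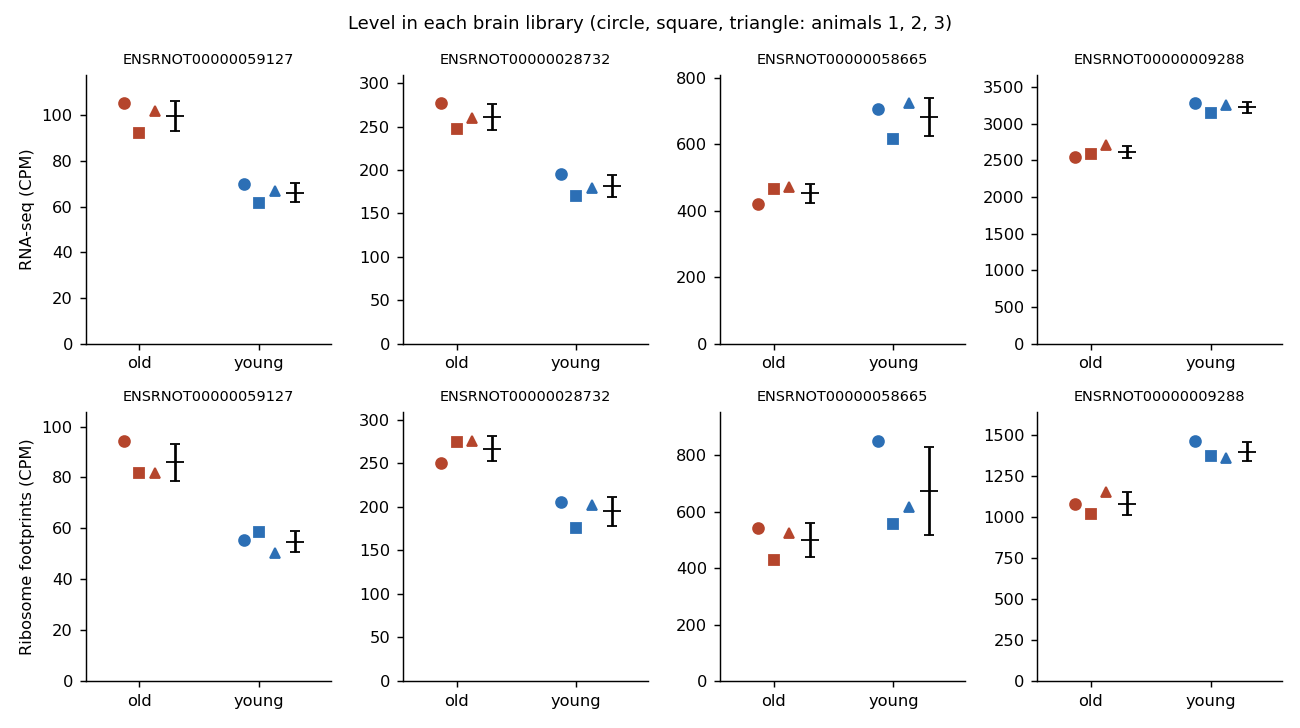
Level in CPM of 4 transcripts in each brain library, RNA-seq above and ribosome footprints below, old left of young; circles, squares and triangles are animals 1, 2 and 3, and bars are the mean and SD (n = 3). In RNA-seq and in footprints the old and young libraries do not overlap for any of the 4.

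The transcripts that rose and those that fell differed in how abundant they were. Those that fell averaged 10.5 to 2917 CPM, with a median of 123 CPM, and those that rose averaged 1.56 to 1013.5 CPM, with a median of 23.5 CPM. The median over all tested was 25.5 CPM. Among the 4537 most abundant tested transcripts 30 rose and 34 fell, among the middle 4537 29 rose and 7 fell, and among the 4537 least abundant 21 rose and 1 fell. Counts per transcript differ between these classes, so the numbers called in each do not rank them by effect. The median log2 fold change ran the same way, at -0.03 in the most abundant class, 0.01 in the middle and 0.05 in the least abundant. For the fit without young animal 1 the classes were formed on levels over all 6 libraries. Among 4488 tested in the most abundant class 199 rose (4.43%) and 450 fell (10%). Among 4711 in the least abundant 195 rose (4.14%) and 82 fell (1.74%). Over all 13742 tested in that fit, 624 rose and 678 fell. The share that rose was thus alike in these classes, and the share that fell was not. Without old animal 2 the medians were -0.02 and 0.05, and too few were called to split.

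The 8 transcripts that rose at least 2-fold were scarce to moderate, averaging 1.56 to 23.0 CPM with a median of 4.68 CPM. Only 2 of the 42 that fell were down by 1.5-fold or more. In sum over the 80 that rose, the level was 6667, 6548 and 6535 CPM in old libraries, against 5214, 4986 and 4857 CPM in young libraries. The 42 that fell summed to 11418, 11665 and 11787 CPM in old libraries, against 14049, 14036 and 14320 CPM in young libraries. These sums describe the called transcripts and, since the calls fixed their direction, carry no test. Young animal 1 was the highest of the 3 young libraries for 49 of the 80 that rose, which is 61.2% beside 37.7% of all tested. It was the lowest of them for 19 of the 42 that fell, which is 45.2% beside 39.8%. Old animal 2 was the highest of the old libraries for 46 of the 80, which is 57.5% beside 32.7%.

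Transcripts that liver hardly uses made up most of those that fell. Of the 42, 36 (85.7%) had a mean CPM in young liver under 0.1 times that in young brain, as did 15 of the 80 that rose (18.8%) and 25.6% of all tested. Conversely, 43 of the 80 that rose (53.8%) but 1 of the 42 that fell (2.38%) had a young liver level at or above that of young brain, beside 15.8% of all tested. This class uses the young brain libraries that also enter the age comparison, so a transcript that happens to be low in them counts as richer in liver and as higher in old. With the young brain level taken from ribosome footprints instead, which are other libraries of the same animals, the class at or above 1 held 24.6% of tested transcripts, 39 of the 80 that rose and 1 of the 42 that fell. The class under 0.1 held 26.2% of those tested, 34 that fell and 15 that rose.

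In the class under 0.1, by footprints, the median log2 difference from the mean of the young libraries was -0.03, -0.04 and -0.03 in old animals 1, 2 and 3. Young animal 1 stood at -0.03 as well, and young animals 2 and 3 stood at 0.01 each. The class thus separated young animals 2 and 3 from the other 4 libraries, and not old from young. Where young liver exceeded young brain footprints 5 to 10 times, the medians were 0.01, 0.16 and 0.08 in old animals 1, 2 and 3, against -0.02, 0.02 and 0.01 in young animals 1, 2 and 3. Old animal 2, the library richest in liver transcripts, stood highest there and old animal 1 lay within the range of the young ones. In the other classes at or above 1 all 3 old libraries lay above all 3 young ones. At 2 to 5 times the medians were 0.02, 0.09 and 0.07 in old animals 1, 2 and 3, against 0.00, 0.00 and 0.00 in the young animals. At 10 times or more they were 0.02, 0.10 and 0.05 in the old animals, against 0.02, 0.01 and -0.02 in the young ones, and at 1 to 2 times 0.00, 0.03 and 0.04, against 0.00, 0.00 and 0.00. Old animal 1 was the lowest old library in each of these classes, within 0.02 of the highest young one. The part of liver RNA in these rises was not tested. With the limit on the liver ratio lowered to 2 times, 46 transcripts rose and 29 fell. With transcripts kept only below 1 time, 31 rose and 17 fell. At the limit of 10 times 42 fell, of which 1 had a young liver level at or above young brain. Why the counts moved was not tested. These limits use the young brain RNA-seq level, and each is a new fit with its own adjusted p. Without old animal 2, and with classes formed on footprints, a choice made after seeing the data, 215 transcripts were higher and 345 lower at an unadjusted p under 0.05 where liver was under 0.1 times brain (edgeR). In that fit 322 were higher and 202 lower at 0.1 to 1 times, and 282 higher and 68 lower at or above 1.

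**Figure D4:**
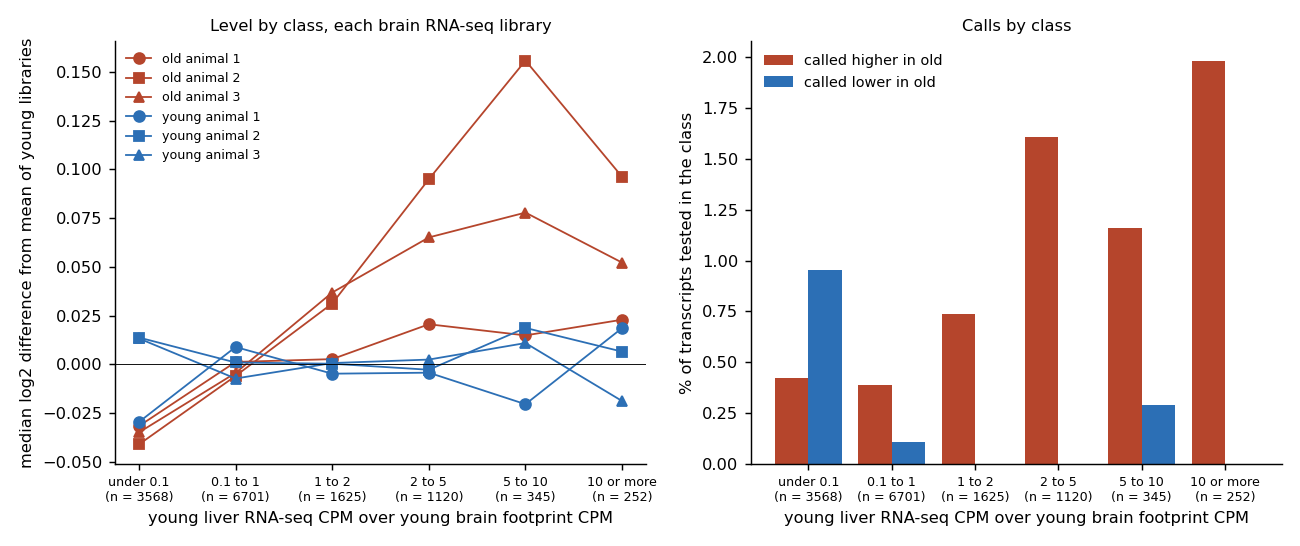
Tested transcripts in 6 classes of young liver RNA-seq CPM over young brain footprint CPM. Left, median log2 difference of each brain RNA-seq library from the mean of the young libraries; right, share of each class called higher or lower in old. Falls are most frequent in the class under 0.1 (0.953% of its transcripts), where young animal 1 lies with the old animals, and old animal 2 stands highest at 5 to 10 times (0.16).

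The calls were also counted by a length-like value. This value accompanies each transcript and no header defines it. It had a median of 390.5 among the transcripts that rose, 501 among those that fell and 426 over all tested. By this value, 29 rose and 11 fell among the 4565 lowest, 19 and 12 among the middle 4517, and 32 and 19 among the 4529 highest. The trend of level with the length-like value did not separate the ages: Spearman's rho was 0.323, 0.333 and 0.335 in the old libraries, against 0.32, 0.329 and 0.336 in the young libraries (two-sided exact permutation p = 0.8, n = 3).

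Ribosome footprints from the same animals had the sign of the RNA change for most called transcripts. Of the 80 transcripts that rose 79 could be tested in footprints, where 77 were higher and 2 lower in old brain. Of the 42 that fell, 36 were lower and 6 higher. In all, 113 of 121 had the same sign, beside 62.4% of all transcripts tested in both. Footprints called 25 of the 79 higher and 0 lower (edgeR adjusted p under 0.05), where 1.01% of 13180 footprint tests called a transcript higher. They called 15 of the 42 lower and 0 higher, where 1.15% called one lower, and 2.16% called one either way. Median log2 fold changes of those that rose were 0.44 in footprints and 0.50 in RNA-seq, and of those that fell -0.32 in both. The animals are the same in both assays, so this is a second measurement of 6 animals and not a second set of animals. Leaving out the footprint library of old animal 2 or that of young animal 1 also gave 113 of 121 with the same sign, and 27 and 43 called in both assays in place of 40. The 121 transcripts were still those chosen with the RNA-seq libraries of both animals, so this does not separate the match from these animals.

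**Figure D5:**
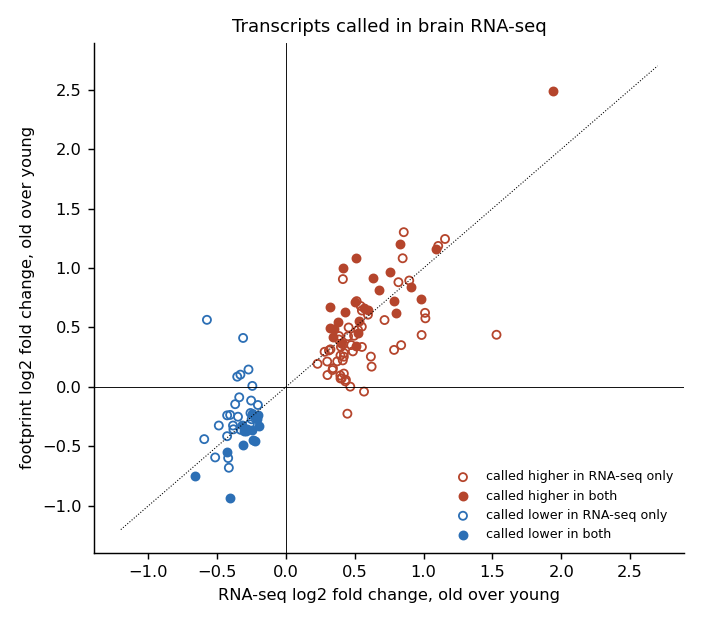
Footprint log2 fold change against RNA-seq log2 fold change, old over young, for the 121 transcripts called in brain RNA-seq and tested in both; filled points were called in both assays and the dotted line marks equal change. Most points lie in the quadrants of equal sign, with 2 that rose and 6 that fell on the other side of 0.

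The same question was asked of liver, to see which changes differed between the organs. Of the 80 transcripts that rose in brain, 69 were tested in liver RNA-seq, where 55 were higher and 14 lower in old rats with a median log2 fold change of 0.33, beside 5410 higher and 5663 lower over all tested in both organs. Of the 42 that fell in brain, 21 were tested in liver, where 11 were higher and 10 lower. A test of the difference between the age effects, over the 12 RNA-seq libraries, called 6 of the 122 (edgeR interaction of age and organ, adjusted p under 0.05). The brain effect was the higher one for 4 and the lower one for 2. Over all transcripts 295 of 13916 passed (2.12%), and 102 (0.723%) with the animal as a block, of which 4 were among the 122. At an unadjusted p under 0.05 (edgeR interaction) 43 of the 122 passed, beside 2719 of the 13516 brain-tested transcripts it covered. The brain libraries that chose the 122 also enter this test. Its spread is that of the 12 libraries, under which edgeR called 0 age changes in brain. Only 90 of the 122 were tested in liver RNA-seq. The test therefore cannot say how many of the 122 differ between organs, and a missed threshold does not show that the organs changed alike. The count of 295 was 31 when old animal 1 was left out, 115 for old animal 3, 776 for young animal 1, and 1 for either young animal 2 or young animal 3.

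The number of transcripts with any count was slightly larger in old brain. Among the 22151 kept, 15709, 15703 and 15646 had at least 1 count in the old libraries, against 15570, 15500 and 15515 in the young libraries. The ages did not overlap (two-sided exact permutation p = 0.1, the smallest that 3 against 3 allows). Thinned to 14181786 counts per library, the numbers were 15564, 15635 and 15646 in old, against 15533, 15456 and 15481 in young libraries (p = 0.1, exact permutation). At the lowest levels, 31 transcripts had counts in every old library and 0 in the young ones, and 5 had the reverse. These are traces: the largest total was 17 counts over the old libraries and 6 over the young ones.

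The spread among animals was small at both ages. Over the 9791 transcripts averaging at least 10 CPM the median coefficient of variation was 4.82% among the 3 old and 5.48% among the 3 young libraries. The young value was wider for 57.0% of transcripts, and young animal 1 is one of its 3 libraries. Between the ages, 18.8% of tested transcripts did not overlap, 9.87% higher and 8.88% lower in old. All 122 called transcripts were among them. The 10 most abundant transcripts took 6.99% ± 0.205 of counts in old and 6.78% ± 0.636 in young brain (SD, n = 3, two-sided exact permutation p = 0.6).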

How the data were processed

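The deposited values are whole-number counts per transcript, 1 table per library, not normalised, judged from the values. Tools named in the submitters' processing notes, with no role, are TopHat2 2.0.10, Bowtie 1.0.0.0 and DESeq, and the build is rn4. For annotation, counting rule and shared reads, the answer is not given in the sources used here, so transcripts that share reads are uncertain. The deposited length-like value has no stated unit, is negative for some transcripts and is used as it stands.

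Old and young libraries were grouped by the labels. Titles give each library an animal code, and no label says more on how the animals were kept apart, so p-values measure the spread between these samples. Liver-rich transcripts were left out before library sizes were taken. edgeR 4.0.16 in R 4.3.3 was used (TMM factors, minimum count 10, minimum total 15, robust quasi-likelihood F test, two-sided, Benjamini-Hochberg adjustment over all tested, threshold 0.05), and checked on simulated data. CPM values of single transcripts are TMM-scaled. DESeq2 1.42.0 and limma 3.58.1 served as alternatives. No molecular identifiers are named, so reads need not be independent molecules. Named transcripts passed the test, had an average log2 CPM of at least 0, no overlap between ages and no identically counted copy; the 2 with the smallest p in each direction were taken, as identifiers have no names, and lists of marker genes could not be run. Members, lists and rule were chosen with earlier results of these data known. Single values were compared with exact permutation tests.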

Additional observations from a re-analysis of the deposited data

Results flagged for a closer look

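In old brain RNA-seq library 2, the 787 transcripts left out of the tests took 3.05% of counts, against 0.717% and 0.695% in the other old libraries and 0.528%, 0.529% and 0.601% in the young ones; the transcripts are rich in liver and lie outside the comparison of ages. The age effect differed between brain and liver for 295 transcripts by the interaction test (edgeR, adjusted p under 0.05; 198 with the higher effect in brain and 97 with the lower), and for 102 with the animal as a block (78 and 24).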

How the results depend on the processing

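The count of 122 called transcripts (80 higher, 42 lower) moved with the tool and the estimate of spread: DESeq2 called 298 (185 and 113), limma-voom 79 (57 and 22), edgeR without robust fitting 80 (61 and 19) and with the spread over 12 RNA-seq libraries 0. With no filter on low counts it was 207 (130 and 77), with no liver exclusion 66 (44 and 22), with a liver limit of 2 times 75 (46 and 29), and with 1 time, chosen after seeing the data, 48 (31 and 17). Leaving out 1 library gave 3 to 1302 called, 3 to 624 higher and 0 to 678 lower. Old and young replicate numbers mark different animals. Same-numbered libraries deviated together at 0.17, -0.0093 and 0.11, and differently numbered ones at -0.15 to 0.079. Whether libraries of the same number share a source of spread was not tested. A fit with the replicate block called 422 (248 and 174), with all 122 among them. The other normalisations, the stricter filter, the other reading of the liver limit and exclusion after library sizes gave 115 to 122. The footprint count of 285 was 439 with the replicate block and 78 to 464 with a library left out. The interaction count of 295 was 996 by DESeq2, 151 with no liver exclusion, 102 with the animal block and 1 to 776 with an animal left out. The cause of these moves was not tested. The 4 named transcripts kept their direction in 21 of 21 alternatives each. Of the 42 transcripts that fell, 36 had liver under 0.1 times brain, as did 394 of 678 without young animal 1. That class held 3482 of 13611 tested transcripts, and 3534 of 13742 without young animal 1. Of the 80 that rose, 43 had liver at or above brain, as did 202 of 624 without young animal 1. That class held 2150 of 13611 and 2179 of 13742 tested transcripts. Without old animal 2, 0 fell and 1 of the 3 that rose had liver at or above brain, too few to split. The transcripts seen at 1 age only, at 17 counts or fewer in total, lie at the limit of the depth.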

Other observations

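Old animal 3 held transcripts that no other brain library had at like levels. A search, made after the values were seen, for transcripts with at least 5 CPM in 1 library and at least 4-fold more than in each of the other 5 (after adding 0.5 CPM) found 2 in old animal 3 and 0 in each of the other libraries. ENSRNOT00000023412 had 0.285, 3.69 and 884 CPM in old animals 1, 2 and 3, against 0.265, 0.524 and 1.55 CPM in young animals 1, 2 and 3. Its footprints had 13.8, 72.0 and 2299.6 CPM in the old animals, against 0.857, 5.34 and 1.26 CPM in the young ones, and liver RNA-seq held 0 in every library. ENSRNOT00000016976 had 2.74, 1.34 and 61.0 CPM in old brain, against 3.52, 5.37 and 1.55 CPM in young brain. Its footprints had 2.69, 1.34 and 85.8 CPM in old brain, against 4.75, 8.54 and 0.210 CPM in young brain. Neither passed the test of age (edgeR adjusted p = 0.446 and 0.617), and both are high in 1 animal in both assays.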
